A study of Mus musculus with 50 samples.

Results

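Cxcl1, Cxcl2, Cxcl3 and Cxcl5 encode CXC chemokines, small secreted proteins that draw neutrophils into tissue through the receptor Cxcr2, and Csf3 encodes granulocyte colony-stimulating factor, the cytokine that drives the making and release of neutrophils. These 5 genes, of 21954 in the deposited tables, were described in amputated mouse digits and in cultured macrophages. They were taken by name as a set, and all 5 were present in every table. The 41 digit libraries came from C57Bl/6 mice whose terminal phalanx (P3) had been cut. In 29 non-regenerative (NR) digits, with labelled levels of 60 to 80%, the wound bed was collected at 0, 3, 6, 12 and 24 h and at 3, 7, 14 and 21 d, with 3 digits a time and 5 at 7 d. Of these, 11 carried levels of 60 to 65%, among them 2 of the 3 digits at 0, 3 and 12 h. Such levels fall in the range that the study's text gives for intermediate digits, so NR here is the group of the labels. At 12 h replicate 3 carried 67%, while the study's methods put non-regenerative digits above 67%. No 12 h digit thus lay above that bound. In 12 digits labelled Medium and called intermediate (Int) here, with levels of 41 to 55%, the wound bed was collected at 0 h, 24 h, 14 d and 21 d, with 3 digits a time. The 9 macrophage libraries were bone marrow-derived cells of C57BL/6 mice, 3 each at baseline (M0), after 24 h of IFN-γ with LPS (M1) and after 24 h of IL-4 (M2). The M0 labels give no time. Per the study's methods, M0 cells received basal medium on day 7, and cells were collected after 24 h of treatment. The methods do not name the M0 collection time apart. No group carried a transgene or a deletion, and the labels do not say whether the macrophage replicates were separate animals, so the p-values there measure the spread between these libraries.

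In skin and other barrier tissue these chemokines are made within hours of injury by epithelial cells, fibroblasts, endothelial cells and resident leukocytes. Signals such as interleukin 1, TNF, interleukin 17 and bacterial products act through NF-κB and C/EBP factors to switch on their transcription, and proteins that bind the mRNA, among them Zfp36 and Zc3h12a, shorten its life. Neutrophils carry Cxcr2 and the receptor for granulocyte colony-stimulating factor, Csf3r, so the 5 genes form the sending side of a circuit whose receiving side is largely brought in by the cells that arrive.

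The 4 chemokine genes lie on the plus strand of chromosome 5 within a single cluster (GENCODE M21, GRCm38). Cxcl5 spans 90759360 to 90761624, Cxcl3 90786103 to 90789600, Cxcl1 90891241 to 90893115 and Cxcl2 90903871 to 90905938, each with 4 exons in its first listed transcript. The platelet chemokine genes Ppbp and Pf4 lie between Cxcl5 and Cxcl3, and Cxcl15 lies between Cxcl3 and Cxcl1. Csf3 lies on chromosome 11 from 98701263 to 98703629, also on the plus strand, with 5 exons. No other annotated gene overlapped any of the 5. Cxcl2 and Cxcl3 are close paralogs: 9.87% of the 65-base windows of Cxcl2 and 5.97% of those of Cxcl3 matched the other gene with at most 2 mismatches, so the counting could split a small part of their reads between them, while Cxcl1, Cxcl5 and Csf3 had no such window among the cluster genes and Csf3.

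The upstream sequences of Cxcl1, Cxcl2 and Cxcl3 are shown because these were the members with a promoter sequence at hand. Each is the 120 bases before the gene's start in RefSeq on the plus strand of GRCm38.p6, with capitals marking GGGAATTTCCC, the longest run of letters that the upstream windows of all 3 hold in common, which contains a form of the NF-κB motif. The RefSeq start lies 4 bases inside the GENCODE gene for Cxcl1, 28 inside for Cxcl2 and just ahead of it for Cxcl3, so the last bases of the first 2 windows are transcribed in GENCODE. The promoter tables held 3 of the 5 genes.
Cxcl1, chr5:90891125-90891244: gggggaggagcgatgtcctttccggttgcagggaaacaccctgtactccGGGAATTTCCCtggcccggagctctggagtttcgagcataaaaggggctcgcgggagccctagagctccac
Cxcl2, chr5:90903779-90903898: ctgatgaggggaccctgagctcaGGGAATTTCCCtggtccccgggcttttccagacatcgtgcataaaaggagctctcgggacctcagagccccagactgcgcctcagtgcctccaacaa
Cxcl3, chr5:90785981-90786100: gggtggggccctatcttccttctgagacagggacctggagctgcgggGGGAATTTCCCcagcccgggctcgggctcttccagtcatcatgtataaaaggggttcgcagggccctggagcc
The run stood once in each, beginning 71 bases before the RefSeq start in Cxcl1, 97 in Cxcl2 and 73 in Cxcl3. Counted from the GENCODE starts, it began 67, 69 and 75 bases before them. Searched on both strands of the 300-base promoter windows, it was present in 14 of 32851, or 0.0426%, the 3 included. The TATA letters TATAAA stood in Cxcl3 alone of the 3, 30 bases before the RefSeq start, and in 13.6% of all windows, on either strand. Pairwise identity over the 120 bases was 60.9% for Cxcl1 with Cxcl3, 48.8% for Cxcl1 with Cxcl2 and 42.4% for Cxcl2 with Cxcl3. A match describes the letters and is not a measured binding site.

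Library totals were 1468749 to 13011782 counts in the digits, with a median of 6835347, and 15683424 to 27904773 in the macrophages. Levels below are the deposited normalized TPM, a measure of transcripts per length that the authors scaled between libraries and can be set side by side between genes within a table; the digit and macrophage tables were normalized separately. Folds and tests rest on the expected counts, fitted for 2 groups at a time with edgeR's quasi-likelihood test; a gene was called at an adjusted p under 0.05 (Benjamini-Hochberg, over all genes tested) with more than a 2-fold difference. The sum of the digits' normalized TPM was 795701 to 3362791 around a median of 947492, the highest being NR 14 d replicate 2. Digit labels carry dates of an earlier and a later period, and the NR 3 h and 12 h and Int 21 d digits were all of the earlier and the NR 21 d digits all of the later one. Of the digits, 5 pairs shared animal mark, date and side in their labels, and 1 of these pairs shared the time as well: NR 14 d replicate 3 and Int 14 d replicate 1. Another pair, NR 0 h replicate 1 and NR 12 h replicate 3, fell within the test of NR 12 h against 0 h, which treated all digits as independent. Macrophages were checked against 10 monocyte and macrophage markers, all above 1 in the median library, with a summed level of 12446 to 26422, while the keratinocyte markers Krt5, Krt14, Krt15, Krt1, Trp63 and Dsp stayed under 1 in every macrophage library. The other keratinocyte markers were Krt10 and Cdh1; Cdh1 was called higher in M2 than in M0, by a log2 fold change of 3.55 ± 0.18 (adjusted p = 1.82e-08), and the summed level of all 8 was at most 1.74 in M0 and M1 and 4.46 to 5.89 in M2. Fibroblast markers summed to 376 to 1225 in the macrophages and neutrophil markers to 401 to 603, and their part in the results was not tested. In bulk tissue, more cells of a type and more RNA per cell cannot be told apart.

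**Figure D1:**
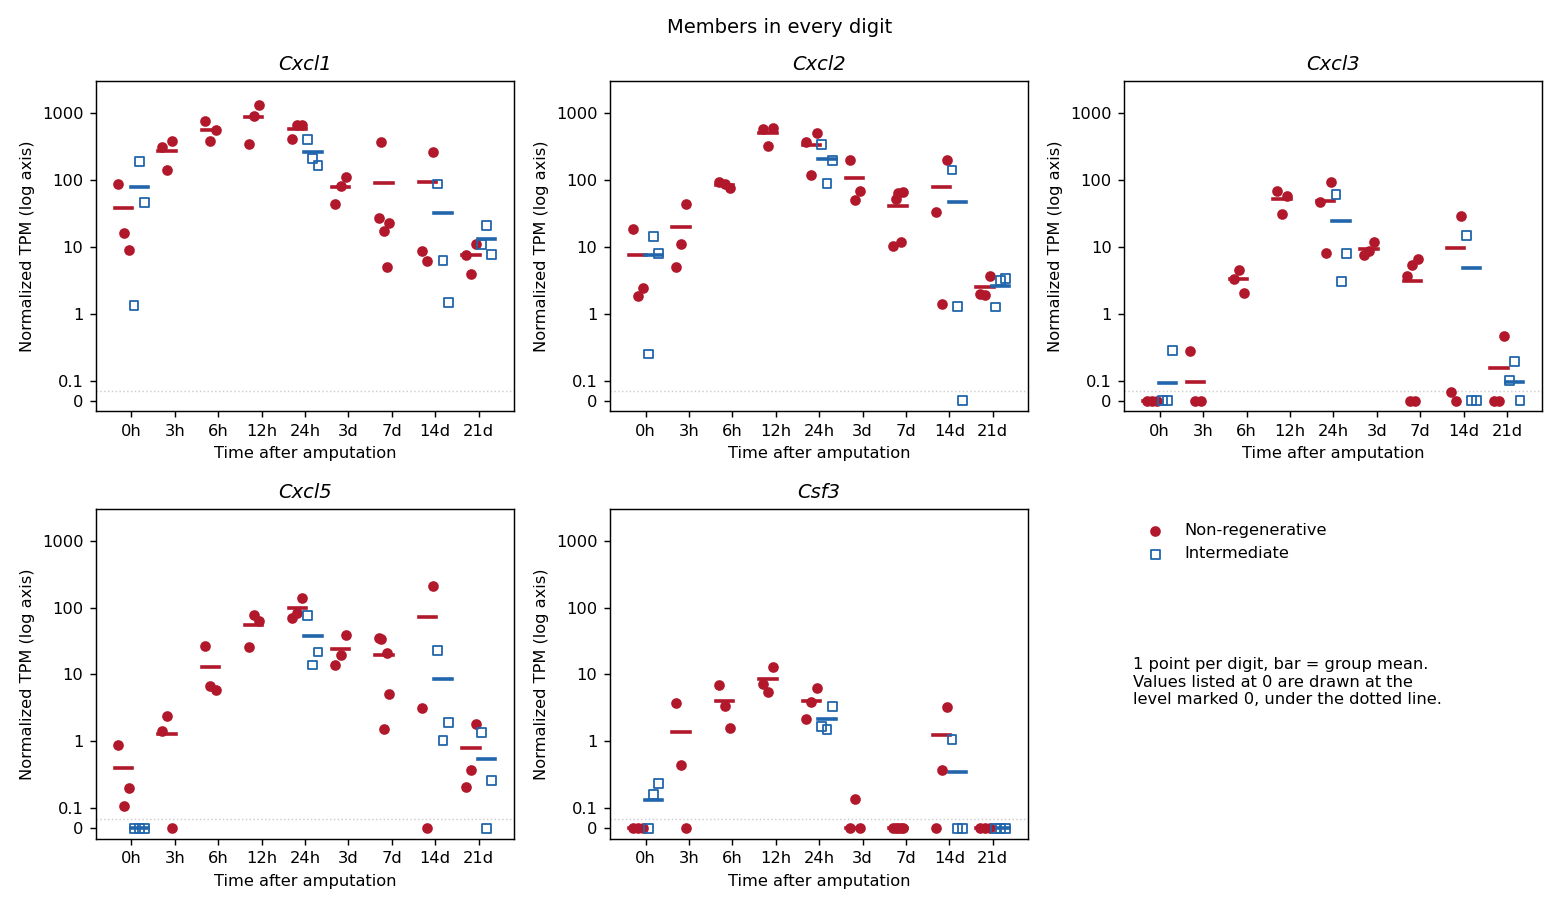
Normalized TPM of each gene (log axis) in every digit by time after amputation, filled circles for non-regenerative and open squares for intermediate digits, with bars at group means and values listed at 0 drawn under the dotted line. All 5 genes stood highest on average at 12 or 24 h among the non-regenerative digits, and 1 digit of each group stood apart at 14 d.

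At 0 h, in NR digits, the set was Cxcl1 with a little Cxcl2. Cxcl1, which encodes the chemokine KC, stood at 87.2, 16.2 and 8.86 normalized TPM, and Cxcl2, encoding MIP-2, at 18.6, 1.84 and 2.39. Cxcl5, encoding the chemokine LIX, was at 0.884, 0.11 and 0.201, from at most 5 counts a library. Cxcl3 and Csf3 were listed at 0 in all 3 digits, which allows up to 3 counts a library. The digit of the earlier period was the highest of the 3 for Cxcl1, Cxcl2 and Cxcl5. In Int digits at 0 h the same pattern stood out: Cxcl1 was at 1.32 in the digit of the later period and at 190.4 and 46.2 in those of the earlier, and Cxcl5 was listed at 0 in all 3.

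By 3 h Cxcl1 stood at 309, 138 and 377, above all 3 digits at 0 h, with a log2 fold change of 2.87 ± 0.67 (SE, n = 3 and 3) that missed the threshold in edgeR's test (adjusted p = 0.275). In that comparison 0% of 12562 genes were called in edgeR's test, none of the members among them; Cxcl1 had an unadjusted p of 0.00233 in edgeR's fit across all genes, and DESeq2 called 1 member. Cxcl2 was at 5.04, 10.9 and 42.9, overlapping 0 h. Csf3 was already seen in 2 of the 3 digits, at 3.76 and 0.446. The 3 h libraries held the lowest total of the series, and Cxcl3, Cxcl5 and Csf3 were too low there to be tested.

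At 6 h the rise took in 3 of the 4 members tested, against 3.23% of all genes called higher. Cxcl1 reached 767, 376 and 547, and its log2 fold change over 0 h was 3.86 ± 0.68 (adjusted p = 0.0213). Cxcl5 reached 26.3, 6.82 and 5.86, all above the 0 h digits; its summed counts were 39.8 times those at 0 h, with a 95% counting interval of 18.99 to 100.1 (adjusted p = 0.0195). Cxcl3, encoding the chemokine DCIP-1, appeared in every digit, at 3.30, 4.48 and 2.06, at least 4.998-fold higher than 0 h (floor of 3 counts in a library; adjusted p = 0.0224). Cxcl2 stood at 93.0, 87.7 and 74.7, apart from the 0 h digits, and missed the threshold with a log2 fold change of 3.41 ± 0.86 (adjusted p = 0.055). Csf3 was present in all 3 digits, at 6.92, 3.41 and 1.58, and did not pass the filter on low counts. With each library left out in turn, 0 to 5 members were called: Cxcl5 kept its call in 4 of 6 such fits, Cxcl1 in 3 and Cxcl3 in 1, with adjusted p up to 0.0957, while the log2 fold change of Cxcl1 stayed at 3.43 to 5.02. None was called when all digits were fitted together, where that of Cxcl1 was 3.86 (adjusted p = 0.229).

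The 12 h digits held the highest mean of 4 members. All 5 were called higher than at 0 h, against 6.76% of all genes. Cxcl3 and Csf3, with 0 counts at 0 h, passed the low-count filter through the 12 h digits alone. Cxcl1 stood at 347, 905 and 1323, a log2 fold change of 4.47 ± 0.76 (adjusted p = 0.00761). Cxcl2 stood at 573, 323 and 599, a log2 fold change of 6.01 ± 0.92 (adjusted p = 0.00537). The lowest 12 h digit was well above the highest 0 h digit for both genes.

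Cxcl3 reached 68.5, 30.7 and 57.0, at least 69.9-fold higher than 0 h, and Csf3 reached 7.32, 5.49 and 12.95, at least 13.1-fold higher. Cxcl5 reached 25.9, 78.2 and 62.9, and its summed counts were 209 times those at 0 h, with an interval of 101 to 522. Intervals and floors cover counting error only. Each of the 5 calls held in all 6 fits that left out a digit; fitted together with the other digits, Cxcl1 alone missed the threshold (adjusted p = 0.0758). All 12 h digits were of the earlier period. The only NR 0 h digit of that period, replicate 1, stood at 87.2 for Cxcl1 and 18.6 for Cxcl2, below the lowest 12 h values. It shares mark, date and side with NR 12 h replicate 3, and the part of the period was not tested.

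At 24 h all 5 were again called higher than at 0 h, against 5.57% of all genes. Cxcl1 stood at 409, 666 and 658, with a log2 fold change of 3.85 ± 0.65 (adjusted p = 0.0068). Cxcl2 stood at 366, 118 and 502, with a log2 fold change of 5.463 ± 1.0 (adjusted p = 0.00958). Cxcl5 stood at 69.6, 83.6 and 138, its highest mean of any digit group, and its summed counts were 321 times those at 0 h with an interval of 155 to 799.

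Cxcl3 at 24 h was at 47.0, 7.99 and 91.9, at least 61.3-fold higher than 0 h, and Csf3 at 2.13, 3.83 and 6.23, at least 6.20-fold higher. The digit of the later period was the lowest of the 3 for Cxcl2 and Cxcl3 and the highest for Cxcl1; the part of the period in this was not tested. Leaving out each digit in turn kept 5 members called, and with all digits in 1 fit Cxcl1 missed the threshold here too (adjusted p = 0.145). All comparisons with 0 h share the same 3 control digits.

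Between neighbouring times not all members were called at the same steps, and whether the members differed in their rise was not tested. From 3 to 6 h no member was called (0.106% of genes were called either way, and DESeq2 called 1 member), and the unadjusted p was under 0.05 in edgeR's fit across all genes for Cxcl1, Cxcl2 and Cxcl5. From 6 to 12 h, 2 members were called higher, against 0.0641% of all genes: Cxcl2, which rose by a log2 fold change of 2.59 ± 0.25, and Cxcl3, which rose by 3.83 ± 0.40 (adjusted p = 0.0272 for both). Cxcl1 over the same step had a log2 fold change of 0.62 ± 0.40 (adjusted p = 0.61) and overlapping digits, 376 to 767 at 6 h and 347 to 1323 at 12 h. These calls were lost when all digits were fitted together, and leaving out each digit in turn gave 0 to 3. From 12 to 24 h no member was called and no gene at all (0%), in edgeR's test, and DESeq2 called 0 members; the smallest unadjusted p of a member was 0.061 in edgeR's fit, for Cxcl5, the member with a higher mean at 24 h.

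All 5 members had lower means at 3 d than at 24 h. At 3 d, 3 members were called lower than at 24 h, against 1.50% of all genes. Cxcl1 fell to 43.6, 81.6 and 111, a log2 fold change of -2.74 ± 0.35 (adjusted p = 0.0146), and Cxcl5 to 13.9, 19.4 and 39.0, a log2 fold change of -1.97 ± 0.40 (adjusted p = 0.0335). Csf3 fell to 1 count in 1 of the 3 digits, and its summed counts at 24 h were 56.6 times higher with an interval of 9.84 to 2266 (adjusted p = 0.0322). Cxcl2 was at 199.9, 50.9 and 67.5, overlapping the 24 h digits, with a log2 fold change of -1.73 ± 0.60 (adjusted p = 0.156). Cxcl3 was at 7.56, 8.67 and 11.9, with a log2 fold change of -2.54 ± 0.70 (adjusted p = 0.0888). Whether the members differed in their decline was not tested. Leaving out each digit left 0 to 3 of these calls, and none was kept when all digits were fitted together.

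Compared with 0 h, 2 members were still called higher at 3 d, against 0.557% of all genes: Cxcl5, with summed counts 85.3 times those at 0 h (interval 41.1 to 213, adjusted p = 0.00571), and Cxcl3, at least 10.2-fold higher (adjusted p = 0.0265). Cxcl5 kept its call in all 6 fits that left out a digit and Cxcl3 in 1 of 6; neither was called when all digits were fitted together. Cxcl1 at 3 d had a log2 fold change over 0 h of 1.0706 ± 0.64 (adjusted p = 0.599).

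At 7 d no member was called (0.0537% of genes were called either way; Cxcl2, Cxcl3 and Cxcl5 had an unadjusted p under 0.05 in edgeR's fit, and DESeq2 called 1 member). The 5 digits spread widely. Cxcl1 ran from 5.02 through a median of 22.6 to 371, the last in a digit far from the other 4. Cxcl2 ran from 10.2 through 51.5 to 65.5, Cxcl5 from 1.53 through 20.9 to 34.6, and Cxcl3 was listed at 0 in 2 of the 5. Csf3 was listed at 0 in all 5.

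At 14 d the mean of each NR member was set by a single digit. Replicate 3 held 261 for Cxcl1, 196 for Cxcl2, 28.4 for Cxcl3, 214 for Cxcl5 and 3.31 for Csf3, its Cxcl5 being the highest of all 41 digits. The other two NR digits held 8.78 and 6.09 for Cxcl1 and 3.19 and 0 for Cxcl5. In Int digits at 14 d, replicate 1 held 86.6 for Cxcl1, 140.2 for Cxcl2 and 23.1 for Cxcl5, and the others at most 6.25, 1.26 and 1.89. These high digits of the 2 groups are the pair whose labels share mark, date and side. No member was called in either group at 14 d against 0 h, nor between the groups, in edgeR's test; in NR 0% of 13567 genes were called either way, and in Int 1.68%. The smallest unadjusted p of a member in edgeR's fits was 0.0871 in NR and 0.143 in Int; without the low-count filter 1 member was called in Int, and in the fits of all digits 2 were called in NR. Without replicate 3 the log2 fold change of Cxcl1 in NR turned from 1.082 to -2.71, and without replicate 1 that of Cxcl2 in Int turned from 2.74 to -3.30.

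By 21 d all members were low. In NR digits Cxcl1 stood at 7.47, 3.97 and 11.1, Cxcl2 at 1.95, 1.88 and 3.68, and Csf3 was listed at 0 in all 3. Cxcl1 held 68.8% ± 7.6 (SD, n = 3) of the summed level of the 5 genes, beside 82.8% ± 6.0 at 0 h, and Cxcl5 held 2.15 to 10.8%, above its 0.605 to 1.75% at 0 h in every digit. These Cxcl5 shares rest on 2.1 to 20 counts a digit at 21 d and 1 to 4.22 at 0 h, and Cxcl5 was too low to be tested. In Int digits Cxcl1 stood at 10.9, 20.8 and 7.59, and Csf3 was again listed at 0. No member was called against 0 h in either group (0.452% of genes were called either way in NR and 1.39% in Int). The unadjusted p of Cxcl1 was 0.0121 in NR and 0.0414 in Int in edgeR's fits across all genes, both toward lower levels, and DESeq2 called 1 member in NR. The NR 21 d digits were all of the later period and the Int ones all of the earlier.

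Over the whole NR series, an edgeR test for any difference between times called all 5 members, against 7.62% of 14434 genes, with adjusted p from 4.46e-04 for Cxcl2 to 0.00497 for Cxcl1, and all 5 stayed called when any of the 29 digits was dropped. The order of group means, over NR and Int together, began with NR 12 h for Cxcl1, Cxcl2, Cxcl3 and Csf3 and with NR 24 h for Cxcl5. In that order each group's range overlapped that of the next for every member, except that Cxcl5 at NR 0 h did not overlap Int 0 h, where it was listed at 0.

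In Int digits all 5 members had higher means at 24 h than at 0 h, with no call in edgeR's test. Cxcl1 stood at 398, 208 and 164, Cxcl2 at 334, 87.4 and 195, and Csf3, too low to be tested against 0 h, at 1.65, 1.51 and 3.28. Cxcl3 stood at 61.0, 3.04 and 7.85 and Cxcl5 at 75.5, 13.9 and 21.6. For Cxcl2, Cxcl3, Cxcl5 and Csf3 all 3 digits were above all 3 at 0 h; for Cxcl1 a 0 h digit at 190.4 overlapped.

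None of the 4 members tested was called at 24 h against 0 h in Int (0.0152% of genes were called either way in edgeR's test). Cxcl2 had a log2 fold change of 4.98 ± 0.96 (adjusted p = 0.12, unadjusted 7.44e-04 in edgeR's fit across all genes). Cxcl5 was at least 65.5-fold higher than 0 h (adjusted p = 0.0926), and the summed counts of Cxcl3 were 127 times higher with an interval of 43.2 to 620.1 (adjusted p = 0.123). In these comparisons DESeq2 called 3 members, edgeR without the low-count filter 2, and edgeR on all digits 1. The share of all genes called under these settings is not given here, so the 3 counts have no background beside them. The test over the 4 Int times called Cxcl2 (adjusted p = 0.0492) and Cxcl5 (adjusted p = 0.0191), against 6.21% of genes; Cxcl2 was called in 3 of 12 fits that left out a digit and Cxcl5 in 11, and with the period as a term 1 member stayed called. The earlier-period digit was the highest of the 3 Int digits at 24 h for Cxcl1, Cxcl2, Cxcl3 and Cxcl5.

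Set against NR digits at 24 h, all 5 members had lower means in Int, and no call was made (0% of 13024 genes in edgeR's test, and 0 members with DESeq2). The log2 difference, Int minus NR, was -1.17 ± 0.36 for Cxcl1 (adjusted p = 0.364, unadjusted 0.0104 in edgeR's fit across all genes), whose 3 Int digits were all below the 3 NR digits. It was -1.38 ± 0.57 for Cxcl5 (adjusted p = 0.431), -0.67 ± 0.59 for Cxcl2, -0.942 ± 1.005 for Cxcl3 and -0.89 ± 0.61 for Csf3, and for these 4 the digits overlapped. Leaving out 1 library gave 0 to 2 calls, the 2 when Int 24 h replicate 1 was left out. No member differed between the groups at 0 h (0% called) or 21 d (0.648% called either way) past the threshold, and the members had no unadjusted p under 0.05 there in edgeR's fits. The interaction of group and time called 0% of 14768 genes in edgeR's fit, with adjusted p from 0.849 for Cxcl1 to 0.999 for Cxcl2, and 0 members without the pair of 14 d digits; no member had an unadjusted p under 0.05, and DESeq2 called 0 members too. These tests do not show that the groups were alike.

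**Figure D2:**
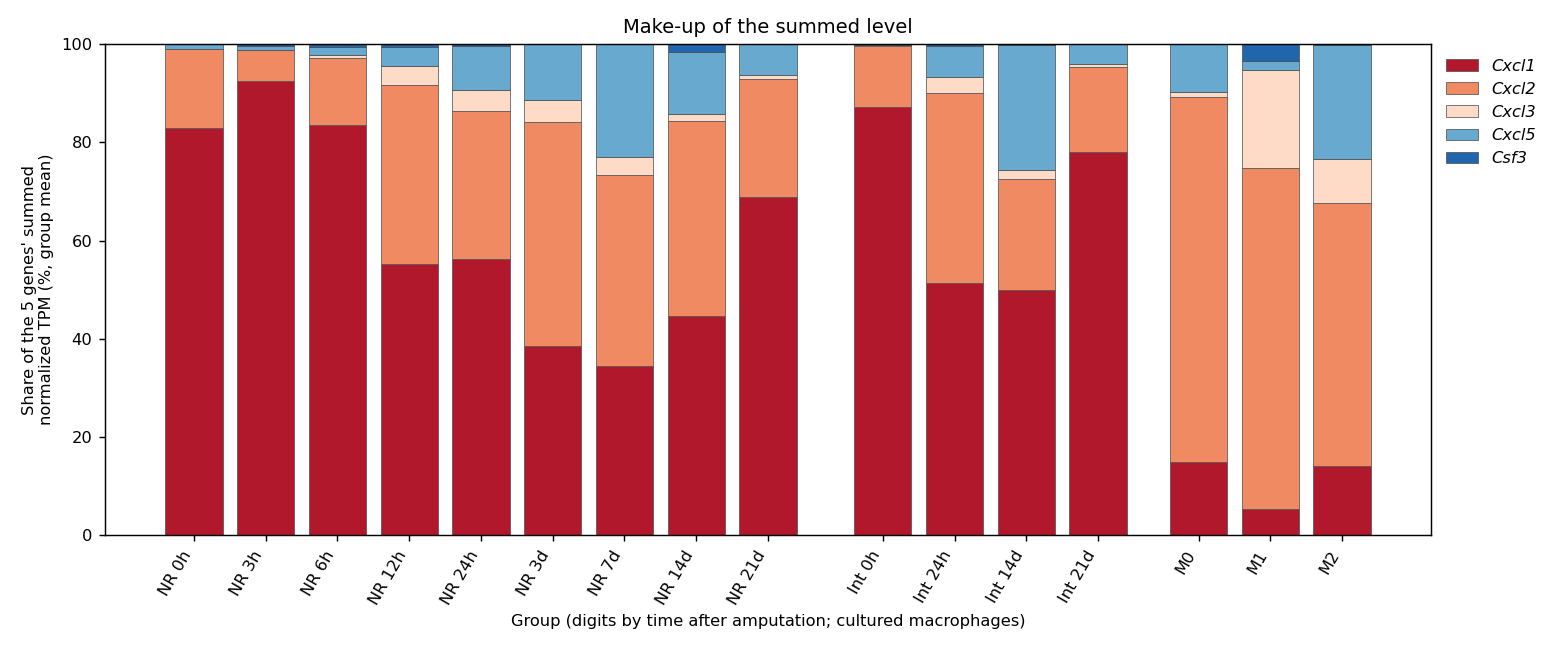
Mean share (%) of each gene in the summed normalized TPM of the 5, stacked to 100, for the digit groups by time and for the macrophage groups. Cxcl1 made up most of the sum in digits at 0 to 6 h, while Cxcl2 did so in all 3 macrophage groups.

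The make-up of the sum differed between times. In NR digits the summed level of the 5 genes was 11.5 to 107 at 0 h, 152 to 419.5 at 3 h, 479 to 896 at 6 h, 1022 to 2055 at 12 h, 880.2 to 1396 at 24 h and 6.22 to 17.1 at 21 d. Cxcl1 held 82.8% ± 6.0 (SD, n = 3) of it at 0 h, 92.5% ± 3.7 at 3 h and 83.6% ± 4.4 at 6 h, then 55.3% ± 18.5 at 12 h and 56.2% ± 16.9 at 24 h. Cxcl2 went from 6.32% ± 4.38 at 3 h to 36.4% ± 17.2 at 12 h. The ratio of Cxcl2 to Cxcl1 within a digit was 0.0163 to 0.114 at 3 h, 0.121 to 0.233 at 6 h and 0.357 to 1.65 at 12 h, without overlap between these 3 times. At 0 h it was 0.113 to 0.27, which took in the 6 h range in part, and at 24 h 0.178 to 0.893, which overlapped both 6 and 12 h.

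Cxcl5 held 1.06% ± 0.61 of the sum at 0 h, 9.05% ± 1.1 at 24 h and 23.1% ± 25.4 (SD, n = 5) at 7 d, with 1.73 to 55.4% among the 7 d digits. At 24 h the Int digits had 51.3% ± 13.1 Cxcl1, 38.7% ± 10.98 Cxcl2 and 6.20% ± 2.21 Cxcl5, each within the spread of the NR digits of that time or overlapping it.

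**Figure D3:**
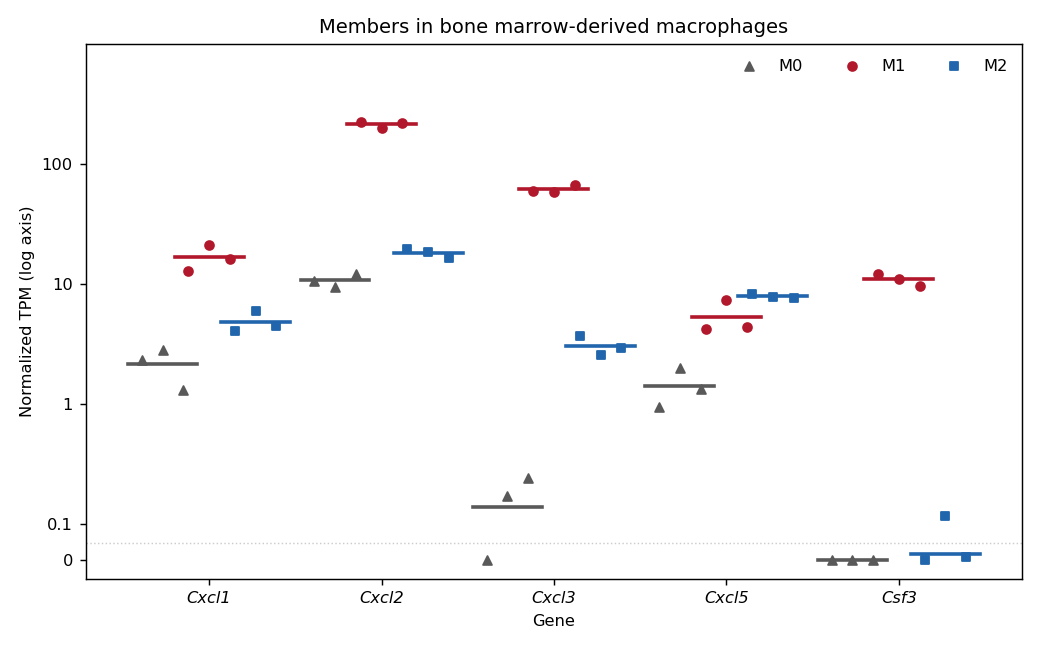
Normalized TPM (log axis) of each gene in the 3 libraries of M0, M1 and M2 macrophages, with bars at means and values listed at 0 drawn under the dotted line. The M1 libraries stood above the others for Cxcl1, Cxcl2, Cxcl3 and Csf3, and the M2 libraries stood highest for Cxcl5.

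In macrophages all 5 members were called higher in M1 than in M0, against 20.1% of all genes. Cxcl2 led, at 10.6, 9.37 and 12.2 in M0 and 225, 201 and 219 in M1, a log2 fold change of 4.30 ± 0.07 (adjusted p = 8.88e-14). Cxcl3 went from 0, 0.173 and 0.244 to 59.0, 58.8 and 67.1, with summed counts 498 times higher (interval 213 to 1535). Csf3, listed at 0 in M0, reached 12.2, 11.1 and 9.56, at least 62.7-fold higher. No M0 library overlapped an M1 library for any of the 5.

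The other 2 were called with smaller folds. Cxcl1 went from 2.32, 2.80 and 1.30 to 12.9, 20.9 and 16.1, a log2 fold change of 2.88 ± 0.26 (adjusted p = 4.53e-07). Cxcl5 went from 0.944, 1.98 and 1.33 to 4.22, 7.32 and 4.42, a log2 fold change of 1.87 ± 0.31 (adjusted p = 1.05e-04). All 5 calls held when each library was left out in turn.

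After IL-4, 3 of the 4 members tested were called higher than in M0, against 11.0% of all genes. Cxcl5 rose most among the members with counts in every M0 library, to 8.24, 7.77 and 7.71, a log2 fold change of 2.42 ± 0.21 (adjusted p = 1.53e-06). Cxcl3 rose to 3.72, 2.57 and 2.91, with summed counts 23.1 times higher (interval 9.63 to 72.6), and Cxcl1 to 4.05, 6.0 and 4.46, a log2 fold change of 1.123 ± 0.27 (adjusted p = 0.0029) that lost its call in 2 of 6 fits with a library left out. Cxcl2, at 19.7, 18.6 and 16.5, had a log2 fold change of 0.72 ± 0.12, past the p threshold and under 2-fold (adjusted p = 3.19e-04). Csf3 had 3 counts in all over the M2 libraries and was not tested.

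Set directly against M2, M1 macrophages held more of 4 members, against 20.1% of genes called higher: Cxcl2 by a log2 fold change of 3.48 ± 0.07 (adjusted p = 1.53e-14), Cxcl3 by 4.32 ± 0.12 (adjusted p = 3.29e-13), Cxcl1 by 1.65 ± 0.19 (adjusted p = 1.36e-06) and Csf3, with summed counts 190.0 times higher and an interval of 64.5 to 926. Cxcl5 lay the other way, at -0.67 ± 0.17 (adjusted p = 0.00192), under 2-fold, with every M2 library above every M1 library. Its share of the summed level was 1.73% ± 0.62 (SD, n = 3) in M1 and 23.2% ± 1.1 in M2.

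Cxcl2 held 74.2% ± 8.0 of the sum in M0, 69.4% ± 2.3 in M1 and 53.4% ± 1.5 in M2, and Cxcl1 14.99% ± 5.7, 5.41% ± 1.46 and 14.2% ± 2.9. The ratio of Cxcl2 to Cxcl1 within a library was 3.35 to 9.39 in M0, 9.60 to 17.4 in M1 and 3.09 to 4.86 in M2. Among digits it ran from 0 to 4.58, and up to 24 h it was at most 1.65. Both are ratios within a library, so the separate scaling of the tables does not enter them.

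The receiving side of the circuit was measured in the same libraries. Of the 4 receptors and decoys (Cxcr1, Cxcr2, Csf3r and the scavenging receptor Ackr1), 3 were tested at NR 12 h and 2 were called higher than at 0 h. Cxcr2 went from 3.26 to 5.58 at 0 h to 11.3 to 27.9 at 12 h, a log2 fold change of 2.07 ± 0.39 (adjusted p = 0.0108), and Csf3r from 1.108 to 5.67 to 21.5 to 55.0, a log2 fold change of 3.72 ± 0.57 (adjusted p = 0.00537). Ackr1 had a log2 fold change of 0.87 ± 0.71 (adjusted p = 0.418). In macrophages Csf3r rose by a log2 fold change of 1.117 ± 0.05 in M1 (adjusted p = 8.88e-10), and Cxcr2 stayed at 0.652 to 2.63 in all 9 libraries.

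Of the 10 cytokines fixed as inducers, 8 were in the table. At NR 12 h the 4 tested were called higher: Il1b by a log2 fold change of 6.53 ± 0.80, Il1a by 2.68 ± 0.33, Osm by 4.79 ± 0.66 and Tnf, which was listed at 0 in all 3 digits at 0 h and stood at 4.44 to 6.71 at 12 h. At 24 h 3 of 3 tested were called higher. Il17a and Il22 stayed under 1 in every digit. The median log2 fold change of the 4 at 12 h was 5.66, beside -0.03 over all genes. Tnf passed the low-count filter through the 12 h digits alone, so the count and the median are not a test of the list. In M1 the same 4 were called higher than in M0, Il1a by 6.68 ± 0.10 and Il1b by 6.26 ± 0.09, and in M2 Il1a and Tnf were.

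Of 12 genes of NF-κB and C/EBP signalling, 8 were called higher at NR 12 h and none lower (median log2 fold change 1.09, beside -0.03 over all genes), among them Nfkb2 at 1.83 ± 0.33, Tnfaip3 at 2.05 ± 0.58, Nfkbiz at 1.14 ± 0.26 and Cebpd at 1.57 ± 0.38. At 6 h it was 2 of 12 and at 24 h 4 of 12. In M1, 10 of 12 were called higher and Cebpd lower (median 1.77, beside -0.09 over all genes), and in M2 2 were higher and 2 lower, Nfkbiz with a log2 fold change of -2.14 ± 0.09.

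Of the 4 factors that act on mRNA decay or stability, Zc3h12a at 1.51 ± 0.30 and Arid5a at 3.03 ± 0.30 were called higher at NR 12 h, and Zfp36 had -0.40 ± 0.36 (adjusted p = 0.465). In M1, 3 of 4 were called higher, Zfp36 by 3.84 ± 0.06.

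The cluster neighbours did not share the pattern. Ppbp, the platelet chemokine CXCL7, stood at 31.9 to 383 at NR 0 h and 4.94 to 11.6 at 12 h, where it was called lower with a log2 fold change of -4.03 ± 0.93 (adjusted p = 0.0219), and it was listed at 0 in all NR and Int digits at 21 d. Pf4, next to it, stood at 48.6 to 191 at 0 h and 13.4 to 44.0 at 12 h. Of 8 other CXC chemokines, 7 were in the table and 4 tested at NR 12 h, with Cxcl16 alone called higher, by 1.16 ± 0.29. In M1 Cxcl9 rose by 9.59 ± 0.09 and Cxcl10 by 7.85 ± 0.16 against M0. Of 6 other colony-stimulating factors and receptors, 5 were tested at NR 12 h and 3 were called higher, among them Csf2rb by 3.23 ± 0.56.

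**Figure D4:**
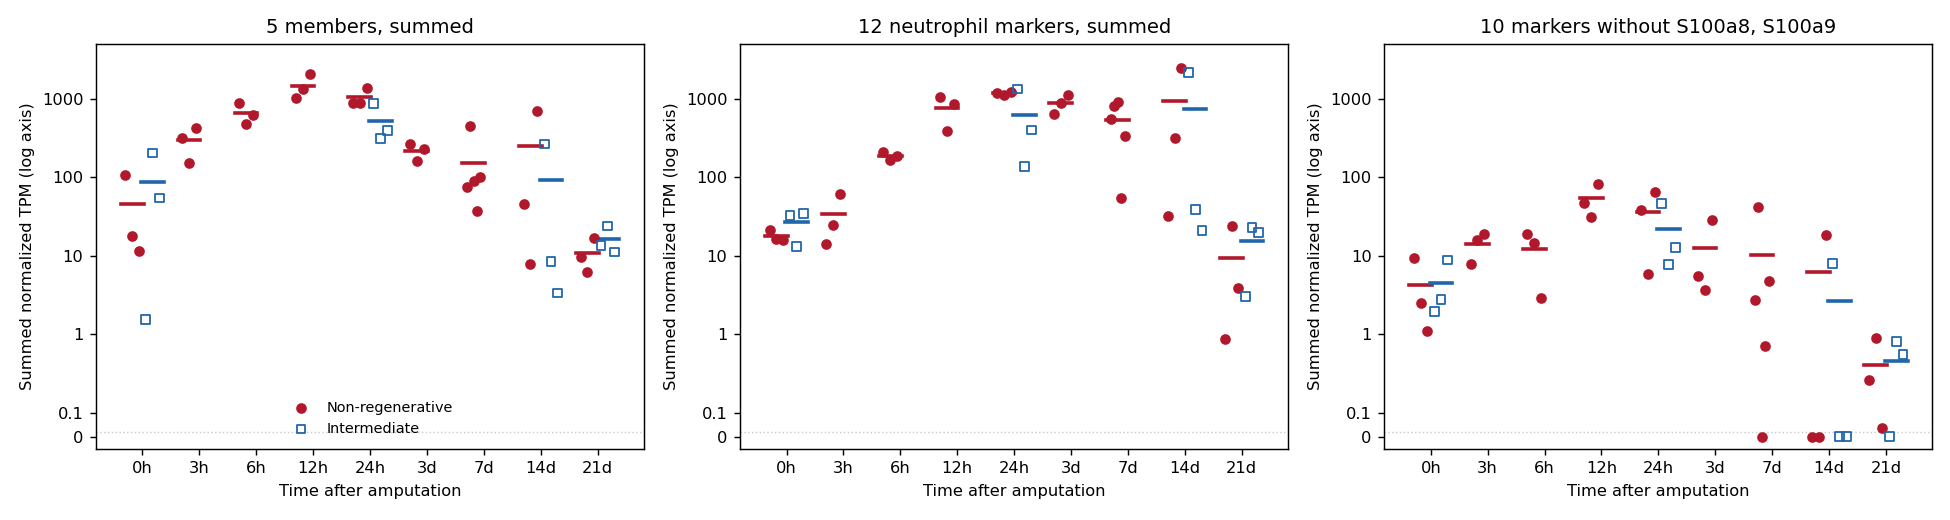
Summed normalized TPM (log axis) of the 5 genes, left, of 12 neutrophil markers, middle, and of the 10 markers other than S100a8 and S100a9, right, in every digit by time after amputation, with bars at group means and sums of 0 drawn under the dotted line. In non-regenerative digits the means of the members and of the 10 markers were highest at 12 h, and that of the 12 markers at 24 h.

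The summed level of neutrophil markers overlapped 0 h at 3 h, when Cxcl1 already stood above it. At 6, 12 and 24 h it was above 0 h in every NR digit. The summed level of 12 markers was 16.1 to 21.5 in NR digits at 0 h, 14.4 to 62.1 at 3 h, 168.5 to 209.9 at 6 h, 389 to 1064 at 12 h, 1127 to 1239.9 at 24 h, 642 to 1116 at 3 d and 0.885 to 23.8 at 21 d. From 6 h to 14 d at least 90.2% of it in every NR digit was S100a8 and S100a9, calcium-binding proteins abundant in neutrophils that wounded epidermis also makes. The other 10 markers, set apart after the values were seen, summed to 1.116 to 9.31 at 0 h, 7.83 to 19.2 at 3 h and 2.88 to 18.9 at 6 h. They summed to 31.2 to 83.6 at 12 h, 5.87 to 65.0 at 24 h and 3.64 to 28.99 at 3 d. At 12 h alone they stood above 0 h in every digit. Their mean sum, like that of the members, was highest at 12 h and lower at 24 h and 3 d, and whether the courses differed in time was not tested.

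At NR 12 h the 5 markers of 12 that passed the low-count filter were all called higher than at 0 h, S100a8 by a log2 fold change of 8.84 ± 0.63 and Retnlg by 4.89 ± 0.88. S100a8, at 0 to 1.42 in the 0 h digits, passed the filter through the 12 h digits, so this count is not a test of the list. From 24 h to 3 d the 5 tested markers had a median log2 fold change of -0.73, beside 0.03 over all genes, and none was called. Over that step Csf3r fell from a mean of 29.4 to 2.67 and was called lower, with a log2 fold change of -3.38 ± 0.76 (adjusted p = 0.0488). Elane and Mpo, made by immature neutrophils, were under 1 in every digit. Ly6g, the marker most used for mouse neutrophils, was listed at 0 in all 3 NR digits at 12 h.

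In Int digits the marker sum was 139 to 1335 at 24 h. The 14 d digits with high members also had the highest marker sums of the 41, 2449 for NR replicate 3 and 2165 for Int replicate 1, beside 20.9 to 316 in the other 14 d digits. S100a8 and S100a9 made up 99.2% and 99.6% of these sums. The 10 other markers summed to 18.7 in NR replicate 3 and 8.0 in Int replicate 1, and to 0 in the other 14 d digits. Both values were below the 31.2 to 83.6 of the NR 12 h digits. Markers of monocytes and macrophages summed to 295 to 341 at NR 0 h and 321 to 421 at 12 h, where 1 of 10, Ccr2, was called higher. Keratinocyte markers summed to 28229 to 57786 and 25813 to 31676, with Krt1 and Krt15 called lower and none higher. Fibroblast, endothelial, T cell, B cell and muscle markers had none called higher at 12 h; Col1a1, Vwf and Cd79a were called lower. The part of cell make-up in the members' changes was not tested. In macrophages 9 of 10 tested neutrophil markers were called lower in M1 than in M0, and the share of all genes called lower there is not given here. The summed level of all 12 markers went the other way, at 416 to 429 in M0 and 549.5 to 603 in M1. S100a8 went from a mean of 98.3 in M0 to 32.8 in M1 and S100a9 from 190.2 to 4.18, so the higher sum came from the rest of the list.

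Over the 13 digit groups, the members' mean log2 levels (pseudocount 1) were alike, with a mean Pearson r of 0.83 over the 10 pairs. The highest was 0.95 for Cxcl3 with Cxcl5 and the lowest 0.69 for Cxcl1 with Cxcl5. The groups share tables, and several share a period, so these are descriptions.

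Among 13056 other genes with a mean of at least 1, those most like Cxcl1 were Uchl3 (r = 0.97), Il6 (0.97) and Stat3 (0.96). Those most like Cxcl2 were Slfn4, Lcn2 and Acod1 (each 0.98), and those most like Cxcl3 were Acod1, Sprr2f and Fpr2 (each 0.98). Cxcl5 was most like Il1rl1 (0.98), Krt16 (0.98) and Uox (0.97), and Csf3 most like Slc29a2 (0.97), Ddx39 (0.96) and Procr (0.95). Il6, the interleukin 6 gene, had a mean of 1.501 at NR 0 h, 88.7 at 12 h and 0.224 at 21 d. Krt16, a keratin of wound-edge epidermis, had means of 519.5 at 0 h, 8888 at 12 h and 16459.9 at 24 h, its later mean being the higher, as for Cxcl5.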

How the data were processed

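RNA of digit wound beds and cultured macrophages was made into poly(A)-selected libraries and, per the study's methods and the labels, aligned with Bowtie and quantified with RSEM 1.2.3 on mm10. The authors deposited 2 units for each library: expected counts per gene from RSEM (estimated counts that need not be whole), and TPM brought to a common scale across libraries by the median-by-ratio method, used here as a normalized signal. Reads that fit several genes were divided between them by RSEM. Restored gene names numbered 26, where a spreadsheet had turned names into dates.

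Counts were rounded and tested with edgeR 4.0.16 (R 4.3.3; filterByExpr, TMM, quasi-likelihood F-test, 2 groups a fit), in place of the EBSeq method of the study, which was not at hand. A gene was called at adjusted p under 0.05 with over 2-fold between mean normalized counts plus 1. A gene with few or no counts in a group passed the low-count filter only through the other group, so its call could go only toward that group. Fits over all times tested time courses and the group by time interaction. SE is the log2 fold change over the root of F. Against a group with 0 counts, a fold is given as a lower bound at 3 counts in its smallest library, and against 1 to 10 summed counts as a ratio with a 95% exact interval. DESeq2 1.42.0 and other alternatives are given at the end. For the alternatives only members called are given, without the share of all genes called under the same setting. Tests were tried on simulated data.

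Depth was 1468749 to 27904773 counts a library. Of 55 replicate pairs none was identical, and the lowest chi-square per degree of freedom was 3.05. All 5 members were named in every comparison; other genes were given as counts of lists, and for each member the 3 genes of highest Pearson r were named. Members and lists were chosen with earlier results of these data known. Macrophage libraries 1 to 3 of each state carry shared numbers; the deviations of same-numbered libraries correlated between -0.113 and 0.117, so the number was not used as a block.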

Additional observations from a re-analysis of the deposited data

Results flagged for a closer look

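In the 5 NR digits at 7 d, Cxcl1 of replicate 2 stood at 371 normalized TPM, far above the next digit at 27.2; the gap was 0.939 of the whole range. The limit used is one that chance passes in about 1 in 20 groups, and this gap lay beyond it. The same digit was within the range of the others for Cxcl2, at 51.5, and Cxcl5, at 34.4, and Cxcl3 was listed at 0 in it. Its neutrophil marker sum was 808, beside 54.4 to 923 in the other 4, and 94.7% of it was S100a8 and S100a9. The 10 other markers summed to 42.5 in this digit, beside 0 to 4.82 in the other 4. Its skeletal muscle marker sum was 177, the highest of the 41 digits, beside 7.71 to 62.9 in the other 4, and its monocyte and macrophage marker sum of 290.1 was the lowest of the 5. Without it the log2 fold change of Cxcl1 at 7 d over 0 h turned from 1.13 to -1.01, neither called. The cause was not tested.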

How the results depend on the processing

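For the 5 members, 730 of 803 values with a library left out and 548 of 604 under other alternatives kept direction and call; 45 and 35 lost a call, 13 and 21 gained one, and 15 reversed, all with a library left out. Members called at NR 6 h (3) became 5 without the low-count filter and with DESeq2, and 0 with all digits in 1 fit, with or without the period. At NR 3 d (2) they became 0 in the fits of all digits, with or without the period. The same held without NR 14 d replicate 2, the digit with the highest TPM sum, left out after seeing the data. These 3 fits gave 0 for 12 against 6 h (2) and for 3 d against 24 h (3), and 1 for Int 24 h (0). NR 14 d replicate 3, the digit high in the members, was kept in all of them. Where 0 were called, DESeq2 gave 1 at NR 3 h, 7 d, 21 d and 6 against 3 h and 3 at Int 24 h. No filter gave 2 at Int 24 h and 1 at Int 14 d. All digits together gave 2 at NR 14 d, with or without the period, and leaving out NR 14 d replicate 2 gave 1 at NR 7 d. The Int time course (2) gave 1 with the period as a term. The cause was not tested.

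With each library left out, members called were 0 to 1 at NR 3 h, 0 to 5 at 6 h, 5 at 12 and 24 h, 1 to 3 at 3 d, 0 to 1 for 6 against 3 h, 0 to 3 for 12 against 6 h and 3 d against 24 h, 0 to 1 for Int 24 h and 21 d, 0 to 2 between groups at 24 h, 2 to 3 for M2 against M0 and 0 to 4 for the Int time course, 4 without Int 14 d replicate 1. Log2 fold changes that reversed, none of them called, ran for Cxcl1 from -1.01 to 2.27 at NR 7 d, -2.71 to 2.23 at NR 14 d, -4.18 to 0.0816 at Int 14 d, and between groups from -0.47 to 2.32 at 0 h and -4.16 to 2.28 at 14 d. For Cxcl2 they ran from -0.0026 to 3.50 at NR 3 h, -2.09 to 0.48 at NR 21 d and -3.30 to 3.49 at Int 14 d, and between groups from -0.90 to 1.87 at 0 h, -6.71 to 1.51 at 14 d and -0.79 to 0.0894 at 21 d. For Cxcl3 the range was -1.06 to 0.31 for NR 24 against 12 h, and for Cxcl5 -5.76 to 2.48 between groups at 14 d. A replicate block left 5, 3 and 4 members called for M1 against M0, M2 against M0 and M1 against M2, as without it; the numbers do not pair the libraries. The mean likeness of 0.83 was 0.79 to 0.83 under the alternatives, and 12 to 15 of the 15 most alike genes were named again.

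With 3 digits a group and few or no counts of Cxcl3, Cxcl5 and Csf3 at 0 h, folds of these genes over 0 h are bounds or intervals, and Csf3 could not be tested at several times.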
